A study of Mus musculus with 6 samples.

Results

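The keratins of simple and basal epithelium described here are 10 genes of the 23478 in the count table, taken by symbol. They comprise 4 type II keratins (Krt4, Krt5, Krt7, Krt8) and 6 type I keratins (Krt13, Krt14, Krt15, Krt17, Krt18, Krt19). RNA was measured in cells sorted from mouse trachea at embryonic day 13.5, with 3 libraries of epithelium and 3 of muscle. Epithelial cells were taken by an APC-labelled antibody to Epcam, a surface protein of epithelia. Muscle cells were taken by GFP from a reporter of gamma smooth muscle actin. All libraries carry the genotype Bmp4 f/f; gamma SMA eGFP and are labelled as controls, so the floxed Bmp4 alleles are common to both groups. The labels do not state whether embryos were pooled, and p-values measure only the spread between these libraries, which may be technical.

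Keratins are intermediate filament proteins of epithelial cells. They assemble as heteropolymers, each pairing a type I chain with a type II chain, and the filaments are anchored at desmosomes and hemidesmosomes. Krt8 and Krt18 form the pair of simple epithelia, and Krt7 and Krt19 accompany them in ducts and airways. Krt5 and Krt14 form the pair of basal cells in stratified and pseudostratified epithelia, where Krt15 and Krt17 can also be found. Krt4 and Krt13 form the pair of suprabasal cells in moist stratified epithelia such as the oesophagus. In the adult trachea, Krt5 marks the basal stem cells.

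In the GENCODE M21 annotation of GRCm38 (mm10, the build of the submitters' processing notes), the type II genes lie on chromosome 15. They are Krt7 (chr15:101411043-101430313), Krt5 (chr15:101707070-101712898), Krt4 (chr15:101918535-101924735) and Krt8 (chr15:101996698-102004482). Krt18 (chr15:102028180-102032027) is the 1 type I member on that chromosome. It lies 23697 bases from Krt8 on the opposite strand, with 0 annotated protein-coding genes between them. The other 5 type I genes lie on chromosome 11: Krt13 (chr11:100117327-100121566), Krt15 (chr11:100131758-100135928), Krt19 (chr11:100140810-100148665), Krt14 (chr11:100203162-100207548) and Krt17 (chr11:100256217-100261029). Krt13, Krt15 and Krt19 are neighbours in that order with 0 protein-coding genes between them. The principal transcripts have 9 exons in each of the type II genes, 8 in Krt13, Krt14, Krt15 and Krt17, 7 in Krt18 and 6 in Krt19.

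RefSeq (GRCm38.p6) promoter windows, 250 bases before to 50 after a start site, were matched for 6 of the 10 genes: Krt5, Krt7, Krt8, Krt13, Krt14 and Krt18. The windows of Krt8 (chr15:102004293-102004592, minus strand), Krt7 (chr15:101412153-101412452, plus strand) and Krt18 (chr15:102027966-102028265, plus strand) are shown because these genes were among the highest of the keratins in epithelium. That of Krt5 (chr15:101712856-101713155, minus strand) is shown because Krt5 differed most between the epithelial libraries among the keratins with counts in all of them. Capitals mark matches, on either strand, to the TATA box (TATAAA), the box CCAAT, the GC box of Sp and Klf factors (GGGCGG), the AP-1 motif (TGANTCA) and the Grainyhead motif (AACNGGTT).
Krt8: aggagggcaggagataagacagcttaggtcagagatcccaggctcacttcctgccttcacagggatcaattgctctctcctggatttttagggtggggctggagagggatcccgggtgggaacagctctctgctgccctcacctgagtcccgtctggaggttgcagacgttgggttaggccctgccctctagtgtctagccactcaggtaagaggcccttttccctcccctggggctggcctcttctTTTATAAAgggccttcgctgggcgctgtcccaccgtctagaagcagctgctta
Krt7: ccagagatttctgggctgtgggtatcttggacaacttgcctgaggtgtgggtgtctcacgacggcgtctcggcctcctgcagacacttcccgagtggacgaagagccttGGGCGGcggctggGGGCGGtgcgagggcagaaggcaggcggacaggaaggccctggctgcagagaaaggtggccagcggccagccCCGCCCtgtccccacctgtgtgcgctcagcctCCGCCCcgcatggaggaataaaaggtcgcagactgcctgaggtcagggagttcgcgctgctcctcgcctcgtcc
Krt18: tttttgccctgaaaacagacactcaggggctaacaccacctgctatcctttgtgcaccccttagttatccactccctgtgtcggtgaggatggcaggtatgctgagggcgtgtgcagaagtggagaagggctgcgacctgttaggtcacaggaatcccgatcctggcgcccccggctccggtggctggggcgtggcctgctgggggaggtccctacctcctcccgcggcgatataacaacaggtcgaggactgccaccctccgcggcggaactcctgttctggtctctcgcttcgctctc
Krt5: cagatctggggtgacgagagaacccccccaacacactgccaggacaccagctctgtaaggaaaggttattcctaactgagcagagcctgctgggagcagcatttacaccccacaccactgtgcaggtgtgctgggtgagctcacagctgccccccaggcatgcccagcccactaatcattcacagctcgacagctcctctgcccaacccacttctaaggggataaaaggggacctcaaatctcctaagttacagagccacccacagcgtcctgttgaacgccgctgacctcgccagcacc

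These letters differ between the genes of simple epithelium. GGGCGG occurs 4 times in the Krt7 window and is in 35.7% of 32851 promoter windows. TATAAA overlaps itself on both strands at the RefSeq start site of Krt8 and is in 13.6% of windows. Neither occurs in the windows of Krt18 and Krt5. TGANTCA is in both windows of Krt13 and in 7.81% of all, and CCAAT is in 1 window of Krt13 and in 37.4% of all. AACNGGTT is in 0 of the 7 windows of these genes and in 2.09% of all. The windows of Krt7 and Krt14 (chr11:100205981-100206280) and 1 of Krt13 (chr11:100120528-100120827) lie wholly within the GENCODE coordinates of their genes. They therefore do not hold the start of the gene as annotated there.

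Total counts were 11847432 to 54848820 per library. The header of the count table gives both replicate 2 libraries the identifier number 9-3 and the others 9-16, without stating its meaning. Within each group, what sets replicate 2 apart cannot be told from this number. Genes of olfactory and vomeronasal receptors, 1449 genes of sensory neurons, served as a measure of background counts. They averaged 0.98 CPM (counts per 1000000, with edgeR's library scaling) per gene in epithelium replicate 2, 0.41 in epithelium replicate 3 and 0.53 in muscle replicate 2. In the other 3 libraries they averaged between 0.0046 and 0.030 CPM. Counts of a few CPM in the former 3 libraries are therefore read against this background. Epcam had 542 to 710.1 CPM in epithelium and 0.646 to 2.20 in muscle, and Actg2, the gene of the muscle reporter, had 1.60 to 2.47 and 403 to 2786.

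The 10 keratins together made up 0.173%, 0.205% and 0.202% of all counts in epithelium replicates 1 to 3, against 0.00094%, 0.00170% and 0.00164% in muscle replicates 1 to 3. Their summed level was 1767 ± 148 CPM (SD, n = 3) in epithelium and 15.6 ± 4.68 in muscle, or 0.881% of the epithelial level. Of the 10 genes, 9 passed the filter on low counts, all but Krt13. Krt7, Krt8, Krt15, Krt17, Krt18 and Krt19 passed the threshold of 0.05 on the adjusted p of edgeR in the direction of epithelium, and 0 were higher in muscle. These 6 of 9 stand beside 4.11% of all 19375 tested genes called higher in epithelium and 10.7% called in either direction. The same 6 genes did not overlap between the groups, where 10.5% of tested genes lay higher in epithelium without overlap and 26.9% did not overlap in either direction. The median log2 fold change, epithelium over muscle, was 5.82 over the 9 genes and 0.10 over all tested genes. The count called was 4 with limma-voom and 6 or 7 in each of the other 14 alternative fits.

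**Figure D1:**
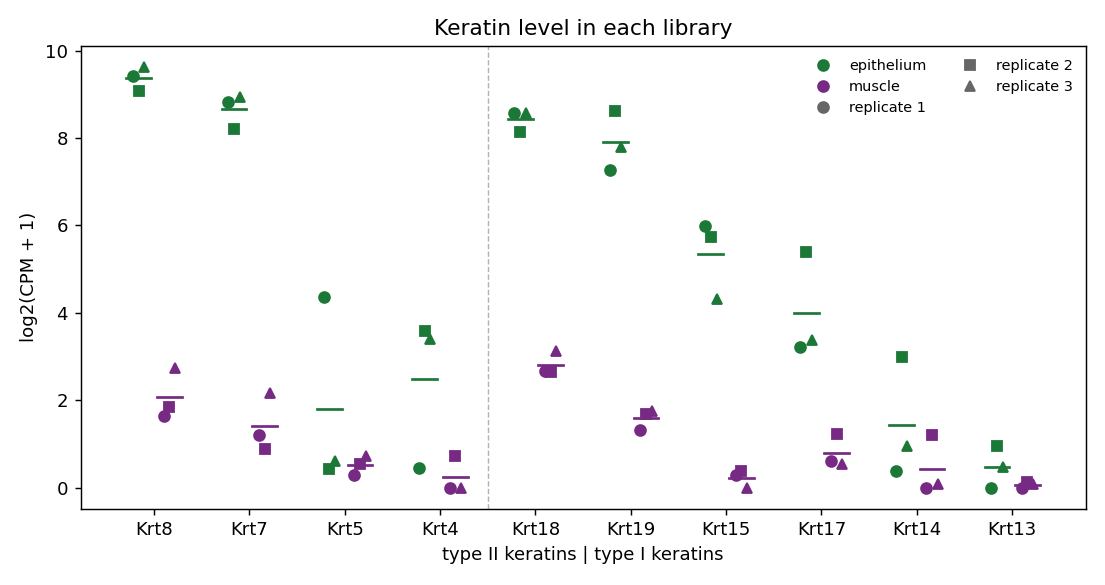
Level of each keratin in every library, as log2(CPM + 1), with type II genes left and type I genes right of the dashed line. Points are libraries, short lines are group means, and the 6 genes Krt8, Krt7, Krt18, Krt19, Krt15 and Krt17 have every epithelial library above every muscle library.

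The type II keratin of simple epithelium, Krt8, had 684, 541 and 788 CPM in epithelium replicates 1 to 3 and 2.09, 2.60 and 5.64 CPM in muscle replicates 1 to 3. The epithelial libraries lay within a range of 1.46-fold and far above muscle. Its log2 fold change was 7.59 ± 0.49 (SE, edgeR, adjusted p = 9.6e-05). Its type I partner Krt18 had 381, 281 and 379.7 CPM in epithelium and 5.32, 5.24 and 7.76 CPM in muscle. Epithelium replicate 2 was the lowest epithelial library for both genes, and the groups did not overlap. The log2 fold change of Krt18 was 5.82 ± 0.32 (edgeR, adjusted p = 9.6e-05), the smallest among the 4 keratins of simple epithelium.

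Krt7, a type II keratin of ducts and airways, had 453, 296 and 487 CPM in epithelium and 1.29, 0.849 and 3.51 CPM in muscle. It followed Krt8 in having its lowest epithelial level in replicate 2 and its highest muscle level in replicate 3. Its log2 fold change was 7.73 ± 0.60 (edgeR, adjusted p = 0.00019). Krt19, a type I keratin that lacks most of the tail domain of other keratins, had 154, 391 and 222 CPM in epithelium and 1.48, 2.20 and 2.38 CPM in muscle. Unlike the other 3 genes, its highest epithelial level was in replicate 2, 2.54-fold above replicate 1. Its log2 fold change was 6.98 ± 0.47 (edgeR, adjusted p = 9.6e-05). Krt7, Krt8, Krt18 and Krt19 were past the threshold in all 15 alternative fits, with log2 fold changes of 5.72 at the lowest (Krt18) and 8.56 at the highest (Krt7).

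The keratins of basal cells were lower in level per coding length and differed more between the epithelial libraries. Krt15, a type I keratin of basal and progenitor cells, had 62.5, 52.4 and 19.0 CPM in epithelium and 0.228, 0.300 and 0 CPM in muscle, from 6, 6 and 0 counts. Every epithelial library was well above muscle, with replicate 3 the lowest. Its log2 fold change of 8.15 ± 0.90 (edgeR, adjusted p = 0.00090) rests on these few muscle counts and exceeded that of Krt7 by less than its SE. Without muscle replicate 3 it was 7.38, below Krt7 at 8.56. Krt17, a type I keratin of basal cells and of epithelia under stress, had 8.25, 40.9 and 9.43 CPM in epithelium and 0.532, 1.35 and 0.455 CPM in muscle. Epithelium replicate 2 stood apart with 4.96-fold the level of replicate 1, and the groups did not overlap. Its log2 fold change was 4.66 ± 0.82 (edgeR, adjusted p = 0.0070), and without epithelium replicate 2 it was 3.52 (adjusted p = 0.044). With limma-voom, the calls of Krt15 (adjusted p = 0.11) and Krt17 (adjusted p = 0.14) were lost.

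Krt5, the type II keratin of basal cells, had 19.5, 0.334 and 0.526 CPM in epithelium replicates 1 to 3. These levels came from 1049, 5 and 14 counts, so that replicate 1 held nearly all of them. Muscle had 0.228, 0.449 and 0.657 CPM, so that epithelium replicates 2 and 3 lay within the range of muscle and the groups overlapped. In epithelium replicate 2, 58.6% of receptor genes had as many counts as Krt5 or more, and in replicate 3 it was 29.7%, against 0% in replicate 1. The log2 fold change was 3.92 ± 1.62, not past the threshold (edgeR, adjusted p = 0.20), and was -0.063 without epithelium replicate 1.

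Values of other epithelial genes were set beside those of Krt5. Trp63, the p63 transcription factor gene of basal and stratified epithelia, had 71.8, 65.6 and 40.3 CPM in epithelium. The 10 non-keratin markers of oesophageal or other stratified epithelium summed to 42.6, 39.9 and 22.9 CPM in epithelium and to 13.8, 31.4 and 14.7 CPM in muscle. These genes did not share an order over the epithelial libraries, as shown by 4 of them named after their values were seen. The transcription factor genes Pax9 (22.9, 6.08 and 3.87 CPM) and Pitx1 (13.2, 8.96 and 3.23 CPM) were highest in replicate 1 and made up most of its sum. The desmosomal cadherin genes Dsg3 (0.149, 3.94 and 3.94 CPM) and Dsc3 (1.06, 6.82 and 4.28 CPM) were lowest there. In muscle they were highest in replicate 2, with 6.19 and 8.79 CPM, above every epithelial library. The libraries in which they were high are those with more background counts. Both genes lay above the 95th percentile of receptor genes in each of these libraries. That percentile was 3.515 CPM for epithelium replicate 2, 1.39 for epithelium replicate 3 and 1.93 for muscle replicate 2. Whether background set the order of Dsg3 and Dsc3 was not tested. Of the 10, Krtdap and Sprr3 were at 0 in epithelium replicate 1 and Foxe1 in epithelium replicate 2. In edgeR 0 of 7 tested passed the threshold, beside 4.11% of all tested genes called higher in epithelium and 6.58% in muscle. The part of such cells in the level of Krt5 was not tested. Of Krt5's transcript, 12.2% of 50-base windows also occur in another gene, most of them in Krt6a, which had 136 counts in epithelium replicate 1.

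Krt14, the type I partner of Krt5, did not follow it. It had 0.297, 6.88 and 0.939 CPM in epithelium and 0, 1.30 and 0.0506 CPM in muscle, highest in epithelium replicate 2. There 0.138% of receptor genes had as many counts, whereas in epithelium replicate 3 it was 12.1% and in muscle replicate 2 12.8%. The groups overlapped, and the log2 fold change was 2.59 ± 2.18 (edgeR, adjusted p = 0.68). Krt14 shares 14.4% of its 50-base windows with other genes, most of them with Krt16 and some with Krt17, so that its few counts are uncertain.

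Of the suprabasal pair, Krt4 had 0.372, 10.9 and 9.54 CPM in epithelium, the reverse of the order of Krt5, and 0, 0.649 and 0 CPM in muscle. In epithelium replicates 2 and 3, 163 and 254 counts of Krt4 exceeded those of every receptor gene. The 20 counts of epithelium replicate 1 fell below muscle replicate 2 in CPM, so the groups overlapped. The log2 fold change was 5.03 ± 2.07 (edgeR, adjusted p = 0.19). It passed with DESeq2 (adjusted p = 0.032) and, in edgeR, without muscle replicate 2 (adjusted p = 0.018), where both remaining muscle libraries were at 0 and the size of the fold change depends on the prior count. Krt13, its type I partner, had 0, 14 and 10 counts in epithelium and 0, 2 and 2 in muscle. In epithelium replicates 2 and 3, 39.8% and 42.0% of receptor genes had as many counts as Krt13, and Krt13 was not distinguishable from background at this depth.

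**Figure D2:**
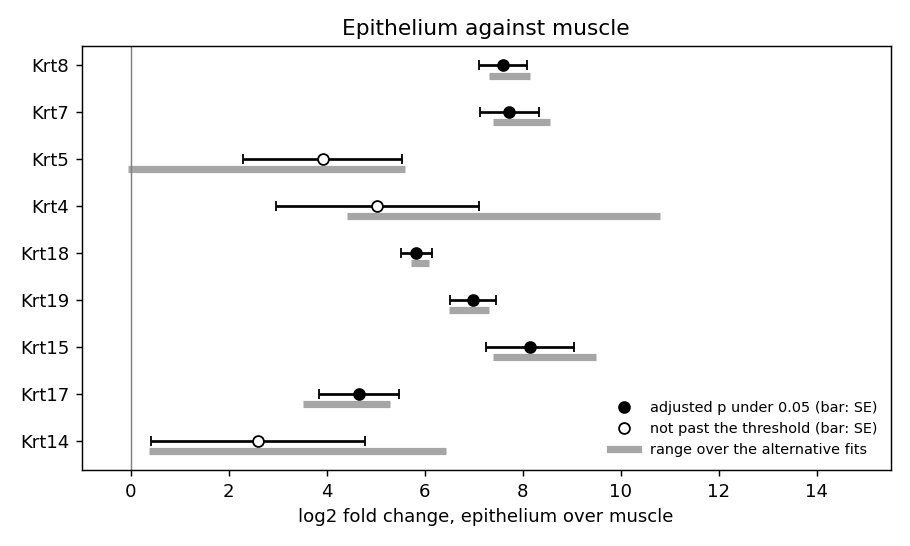
Log2 fold change of the 9 tested keratins, epithelium over muscle, with its standard error (black) and the range over the alternative fits (grey). The 4 keratins of simple epithelium have narrow ranges between 5.72 and 8.56, whereas the range of Krt5 extends from -0.063 to 5.59 and that of Krt4 from 4.40 to 10.80, its upper end being set by the prior count because muscle is then at 0.

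Levels of different genes were compared per kilobase of coding length. In epithelium, Krt8 was first with 457 ± 84.4 CPM per coding kilobase (SD, n = 3), above Krt7 in all 3 libraries and with no overlap of their ranges. Krt7 (301 ± 74.5), Krt18 (274 ± 45.2) and Krt19 (211 ± 101) followed on the same scale, and the ranges of neighbours in this order overlapped. Krt7 was above Krt18 in 2 of 3 libraries and Krt18 above Krt19 in 2 of 3. Krt15 (32.6 ± 16.7) was below Krt19 in all 3 libraries without overlap, and Krt17 (15.0 ± 14.3) was below Krt15 in all 3 with overlapping ranges. Krt4, Krt5, Krt14 and Krt13 had means of 4.40, 3.90, 1.86 and 0.333 CPM per coding kilobase. Per kilobase of transcript, Krt7 moved from the second to the fourth place with 101 ± 25.0 CPM per transcript kilobase, its transcript of 4094 bases being the longest of the 10 genes. Krt8 was first on both scales.

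The shares of the summed keratin counts describe the make-up of the keratin pool in each library. In epithelium, Krt8 took 38.8%, 33.4% and 41.1% of 94887, 24260 and 51036 keratin counts, and Krt7 took 25.7%, 18.2% and 25.4%. Krt18 took 21.6%, 17.3% and 19.8% and Krt19 8.73%, 24.1% and 11.6%. In epithelium replicate 2, the larger share of Krt19 went with smaller shares of Krt8, Krt7 and Krt18. The 95% Wilson intervals, which cover counting error only, were narrow at this depth, from 23.6% to 24.6% for Krt19 in epithelium replicate 2 and from 8.55% to 8.91% in replicate 1. The libraries thus differed by more than this interval covers. Over all genes, 73.8% to 79.6% of counts from 1 to 19 were even in each library, against 49.4% to 50.6% of counts of 100 or more. Low counts may therefore not be independent molecules, and the intervals may be too narrow. Together these 4 keratins made up 94.8%, 93.1% and 97.9% of the keratin counts. The basal keratins Krt5, Krt14, Krt15 and Krt17 made up 5.14%, 6.20% and 1.56%, led by Krt15 in replicates 1 to 3 with 3.55%, 3.23% and 0.992%. Within this basal share, Krt5 was second in replicate 1 with 1.11%, and Krt17 was second in replicate 2 with 2.52% and in replicate 3 with 0.492%. Krt4 and Krt13 together made up 0.0211%, 0.730% and 0.517%, where the 0 counts of Krt13 in replicate 1 allow a share of up to 0.00316% if the limit is set at 3 counts, and 0.00405% by the Wilson interval.

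**Figure D3:**
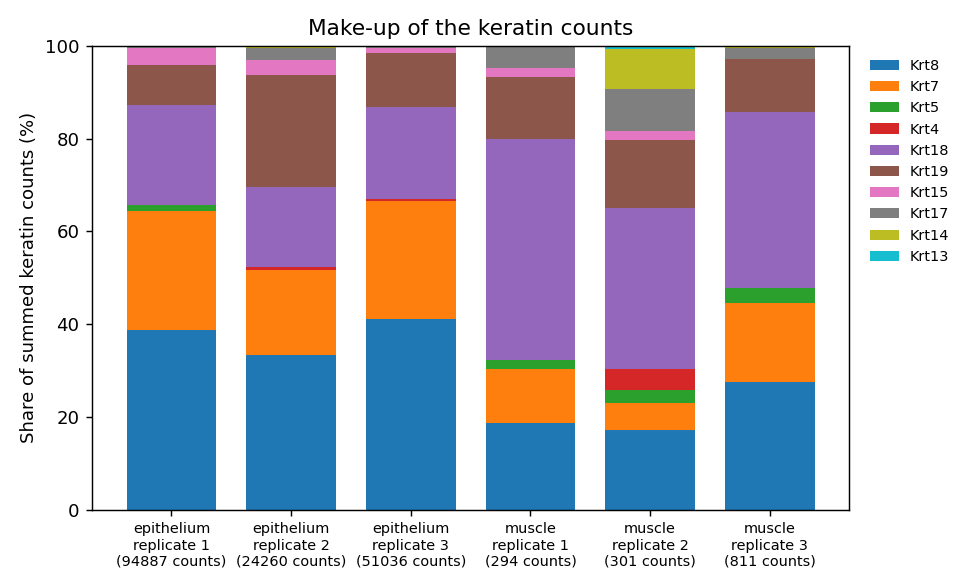
Share of each keratin in the summed counts of the 10 keratins, in percent, for every library, with the summed counts under each bar. Krt8 is the largest part of each epithelial bar (33.4% to 41.1%), and Krt18 is the largest part of each muscle bar, which rests on 294 to 811 counts.

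In muscle the keratin counts were few, 294, 301 and 811, and Krt18 was first among them in every library. Krt18 took 47.6%, 34.9% and 37.9% of them, against 17.3% to 21.6% in epithelium. Krt8 took 18.7%, 17.3% and 27.5% and Krt7 11.6%, 5.65% and 17.1%, both below every epithelial library. The share of Krt5 was 2.75% ± 0.62 (SD, n = 3) in muscle, from 6, 9 and 26 counts, and 0.384% ± 0.624 in epithelium. The shares of these 4 genes did not overlap between the groups, and those of the other 6 did. For Krt5 this did not hold less background counts, where its share was 1.81%, 0% and 3.13% in muscle and 1.11%, 0% and 0.00605% in epithelium, and 37.8% of receptor genes had as many counts as Krt5 or more in muscle replicate 2. An exact two-sided permutation test of 3 against 3 libraries cannot give a p under 0.10. It gave that value for Krt5, Krt7, Krt8 and Krt18, or 0.25 after Benjamini-Hochberg adjustment over the 10 shares. In muscle replicate 2, which had the most background counts of the muscle libraries, Krt14 and Krt17 took 8.64% and 8.97%, against 0% and 4.76% in replicate 1 and 0.247% and 2.22% in replicate 3.

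Type I and type II chains are needed together for a filament. In epithelium, the ratio of type I to type II keratin counts was 0.524, 0.911 and 0.491, highest in replicate 2, where the share of Krt19 was highest. In muscle it was 2.10, 2.31 and 1.09, above every epithelial library. Per coding length the means were 0.735 ± 0.272 (SD, n = 3) in epithelium and 2.11 ± 0.75 in muscle, and the order was the same. The ratio within the simple pair, Krt18 to Krt8, was 0.558, 0.519 and 0.482 in epithelium and 2.55, 2.02 and 1.38 in muscle. The spread in epithelium was small and no muscle library came near it. The ratio of Krt7 to Krt8 was 0.609 ± 0.059 in epithelium and 0.523 ± 0.170 in muscle and overlapped, as did that of Krt19 to Krt8 (0.409 ± 0.272 and 0.659 ± 0.217). In exact two-sided permutation tests the p was 0.10 for Krt18, the smallest possible, 0.70 for Krt7 and 0.30 for Krt19, or 0.30, 0.70 and 0.45 after adjustment over these 3 ratios. Of the Krt8 transcript, 29.7% of 50-base windows also occur in other transcripts, most of them in the pseudogene Krt8-ps, against 0.72% for Krt18, and counts of Krt8 are uncertain to that extent in both groups. The antisense gene Gm36026 overlaps exons of Krt8, and without strand their reads cannot be told apart.

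**Figure D4:**
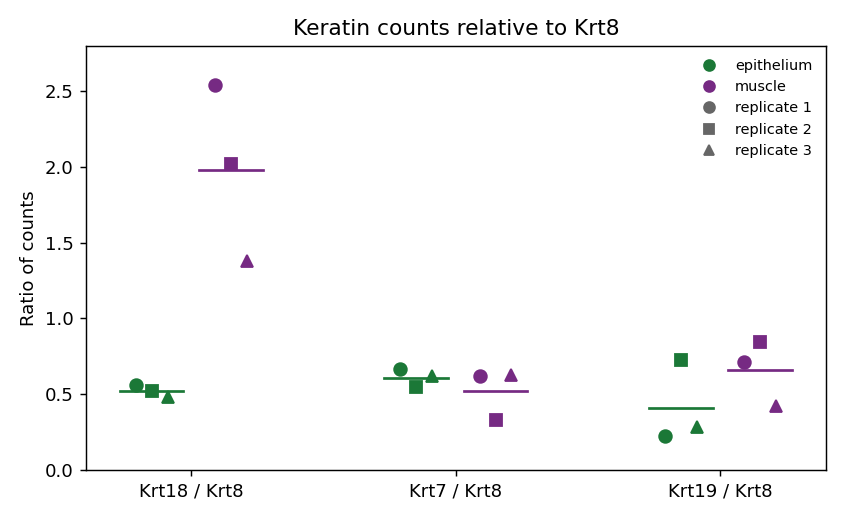
Ratio of the counts of Krt18, Krt7 and Krt19 to those of Krt8 in each library. Points are libraries and lines are group means. The Krt18 ratio lies between 0.482 and 0.558 in epithelium and between 1.38 and 2.55 in muscle, whereas the other 2 ratios overlap.

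The keratins in muscle were also set against genes of epithelium outside the keratin family. The 10 non-keratin epithelial markers, from Epcam and Cdh1 to Spint1, had muscle levels of 0.256% (Epcam) to 1.08% (Esrp1) of their epithelial level, with a median of 0.519%. All 10 were higher in epithelium in edgeR, beside 4.11% of all tested genes, and Rab25 was at 0 in muscle replicate 2. They were chosen as epithelial markers and include Epcam, by which the cells were sorted, so this count was largely set in advance. Without Epcam, the lowest was Cldn6 at 0.28%. By library their medians were 0.151%, 0.703% and 0.497% in muscle replicates 1 to 3. Krt8 stood at 0.513%, Krt7 at 0.457%, Krt15 at 0.394% and Krt19 at 0.79%, within the range of these markers. Krt18 stood at 1.76%, with 1.53%, 1.51% and 2.23% in muscle replicates 1 to 3, and Krt17 at 3.99%, with 2.73%, 6.90% and 2.33%. By the mean over the muscle libraries, both were above each of the 10 markers. In muscle replicate 2, however, Esrp1 had 2.00 CPM against a mean of 95.7 in epithelium, a larger percent than that of Krt18. Nor were both above all genes called higher in epithelium: Elf3 stood at 2.32%, Evpl at 4.97%, Stard10 at 5.28%, Fam83h at 5.73% and P2ry2 at 7.54%. In muscle replicate 2, 0.138% of receptor genes had as many counts as Krt18 and 11.4% as many as Krt17. In replicates 1 and 3 the shares for Krt17 were 0.621% and 0.552%, at 14 and 18 counts.

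**Figure D5:**
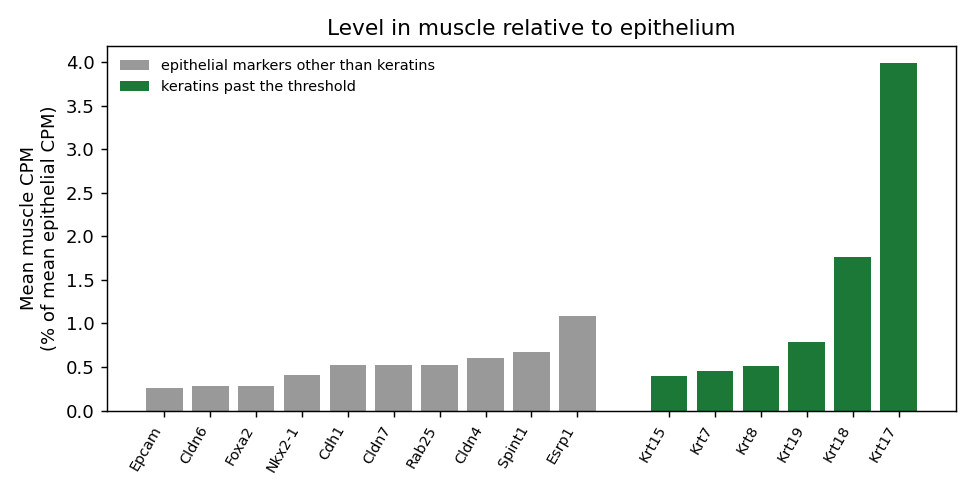
Mean CPM in muscle as a percent of mean CPM in epithelium, for 10 epithelial markers outside the keratin family (grey) and for the 6 keratins called higher in epithelium (green). Krt15, Krt7, Krt8 and Krt19 lie within the range of the markers (0.256% to 1.08%), and Krt18 (1.76%) and Krt17 (3.99%) lie above it.

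Markers of other cell types that can carry simple keratins were counted in the same libraries. The 7 mesothelial markers in the table summed to 3.08, 22.1 and 4.12 CPM in muscle and to 24.5, 26.7 and 27.3 CPM in epithelium. Upk3b and Upk1b were at 0 in muscle replicate 1 and Msln and Upk1b in muscle replicate 3. The rest had counts there, led by Wt1 with 1.67 and 1.95 CPM, and including Bnc1 (0.532 and 1.16) and Gpm6a (0.494 and 0.657). Krt18 had 5.32 and 7.76 CPM in these libraries. In muscle replicate 2, which had more background counts, Wt1 led with 9.44 CPM, above the 95th percentile of receptor genes there (1.93 CPM). Msln (1.75 CPM) and Upk1b (0.30 CPM) were below that percentile, and the rest were above it. The part of background in this sum was not tested. In edgeR 0 of the 7 passed the threshold, beside 4.11% of all tested genes called higher in epithelium and 6.58% in muscle. The 8 endothelial markers summed to 75.6, 78.3 and 99.7 CPM in muscle and to 14.2, 69.3 and 33.8 CPM in epithelium. Of the 8, 1 was called higher in muscle and 0 in epithelium, beside 6.58% and 4.11% of all tested genes. The part of these cells in the muscle level of Krt18 was not tested. In sorted bulk samples, fewer cells of a type and less RNA per cell cannot be told apart.

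The keratin genes outside these 10 were compared in the same fit. Of 41 in the table, 36 were tested, 17 of type II and 19 of type I, and 0 passed the threshold in edgeR, limma-voom or DESeq2, with 0 at an unadjusted edgeR p under 0.05. Over all tested genes edgeR called 4.11% higher in epithelium and 6.58% higher in muscle, so that few calls among 36 genes would match the background. Their medians of log2 fold change were 1.27 for type II and 1.08 for type I. Krt10, a type I keratin of differentiated epidermis named after its values were seen, led them in every library, with 39.5, 25.6 and 45.0 CPM in muscle and 32.4, 22.3 and 30.1 CPM in epithelium. Its groups overlapped, with a log2 fold change of -0.38 ± 0.28 (edgeR, adjusted p = 0.60). In muscle the 41 other keratins made up 82.3%, 86.4% and 72.8% of all keratin CPM, against 3.07%, 7.76% and 4.66% in epithelium. In epithelium replicates 2 and 3 and muscle replicate 2, 39, 41 and 41 of the 41 genes had counts, against 18 or 19 in the other libraries, among them the corneal keratin Krt12 with 0 counts in 3 libraries and 2.59 to 5.75 CPM in those with background counts.

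Krt75, a type II keratin of hair follicles also named after its values were seen, had 9.96, 9.02 and 6.84 CPM in epithelium and 0.190, 5.94 and 0.0506 CPM in muscle. The groups did not overlap, but the log2 fold change was 2.07 ± 1.40 and not past the threshold (edgeR, adjusted p = 0.52). Without muscle replicate 2, whose background counts are the highest among the muscle libraries, it was 6.16 (edgeR, adjusted p = 0.0037). Krt6a, a type II keratin of stressed and stratified epithelia, passed in edgeR only in the fit of the 3 libraries with few background counts (adjusted p = 0.019), which has 1 epithelial library and was added after the data were seen, and shares 62.0% of its windows with other genes, most of them with Krt6b.

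Intermediate filament genes outside the keratins were compared because muscle builds its filaments from other chains. Of 13 such genes, 3 passed in the direction of muscle and 1 in that of epithelium, beside 6.58% and 4.11% of all tested genes, with a median log2 fold change of 0.25. Des, which encodes desmin of muscle, had 511, 109 and 695 CPM in muscle and 6.54, 8.62 and 3.72 CPM in epithelium, a log2 fold change of -6.13 ± 0.73 (edgeR, adjusted p = 0.0011). Vim, which encodes vimentin of mesenchymal cells, had 644, 614 and 760 CPM in muscle and 119, 80.8 and 78.3 CPM in epithelium (-2.86 ± 0.28, adjusted p = 0.00050). The nuclear lamin gene Lmna was also higher in muscle (-1.99 ± 0.32, adjusted p = 0.0049, edgeR). Lmnb1, a lamin gene of dividing cells among others, was higher in epithelium (2.40 ± 0.41, adjusted p = 0.0064, edgeR).

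Genes whose products anchor or bind keratin filaments were compared next. Of 16 plakin, desmosomal and keratin-binding genes tested, 9 were higher in epithelium and 0 in muscle, beside 4.11% and 6.58% of all tested genes. The count in epithelium was 6 without muscle replicate 3 or without epithelium replicate 3, and 10 with limma-voom or DESeq2. Their median log2 fold change was 2.63, and 10 lay higher in epithelium without overlap, beside 10.5% of all tested genes. Dsg3 and Dsc3 are in this list and in that of stratified epithelium above. Evpl, the envoplakin gene, had 80.3, 67.4 and 55.9 CPM in epithelium and 1.86, 5.14 and 3.11 CPM in muscle (4.34 ± 0.40, adjusted p = 0.00045, edgeR). Fam83h, whose product organises keratin filaments, had 46.1, 40.0 and 32.1 CPM in epithelium and 2.36, 2.00 and 2.43 CPM in muscle (4.12 ± 0.28, adjusted p = 0.00010, edgeR). The desmosomal plakophilin gene Pkp3 (6.48 ± 1.15, adjusted p = 0.0076, edgeR) and the periplakin gene Ppl (4.69 ± 1.12, adjusted p = 0.030, edgeR) were also higher in epithelium. Without muscle replicate 1 the adjusted p of Pkp3 was 0.059, and Ppl lost its call in 8 of the 15 alternative fits, at up to 0.18.

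Of 11 transcription regulators of keratin-bearing epithelia, 7 were higher in epithelium and 0 in muscle, beside 4.11% and 6.58% of all tested genes, with a median log2 fold change of 4.46. Ovol2, a repressor that guards epithelial identity, had a log2 fold change of 6.90 ± 0.79 (edgeR, adjusted p = 0.0010). Grhl2, a Grainyhead factor of epithelia, had 187, 125 and 163 CPM in epithelium and 0.608, 3.94 and 0.986 CPM in muscle (6.47 ± 0.69, adjusted p = 0.00078, edgeR). Klf5 (6.15 ± 0.48, adjusted p = 0.00019, edgeR) and the Ets factor gene Elf3 (5.45 ± 0.66, adjusted p = 0.0012) followed.

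Of 10 basal cell genes other than keratins, 4 were higher in epithelium and 1 in muscle, beside 4.11% and 6.58% of all tested genes. Those in epithelium were led by Trp63 with a log2 fold change of 4.78 ± 0.79 (edgeR, adjusted p = 0.0057), and Lamb3, a laminin gene of hemidesmosomal contacts (4.19 ± 0.41, adjusted p = 0.00053). Trp63 is also counted among the transcription regulators above, so the lists are not separate. Bcam (2.11, adjusted p = 0.0018, edgeR) and the integrin gene Itga6 (1.98, adjusted p = 0.00096) were the others. Snai2, a transcription factor gene that mesenchymal cells also use, was higher in muscle (-3.78 ± 0.44, adjusted p = 0.0011, edgeR). The remaining 5 were not called. Ngfr, the nerve growth factor receptor gene of adult basal cells, had 1.63 ± 0.33 CPM (SD, n = 3) in epithelium and 8.39 ± 3.22 in muscle (edgeR, adjusted p = 0.064). Itgb4 (27.1 ± 1.21 and 4.96 ± 7.21 CPM, adjusted p = 0.19, edgeR) and Dlk2 (6.12 ± 2.04 and 2.32 ± 0.69, adjusted p = 0.37) lay higher in epithelium without overlap. Pdpn overlapped, as did Aqp3 with at most 3.81 CPM. Of the 10, 6 lay higher in epithelium without overlap and 2 in muscle, beside 10.5% and 16.4% of all tested genes.

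Genes outside the keratins were ranked by how closely they followed Krt8 and Krt7, the 2 keratins with the highest mean CPM in epithelium. The measure was Pearson's r of log2(CPM + 1) over the 6 libraries, among 7038 genes whose average log2 CPM was 5 or more, and it mostly reflects the difference between the sorted groups. Cldn6, an embryonic claudin gene of tight junctions (r = 0.999), the nucleotide receptor gene P2ry2 (0.999), Stard10 (0.998) and Wfdc2 (0.998), a secreted protease inhibitor gene of airway epithelium, were closest to Krt8. Closest to Krt7 were Wfdc2 (0.999), Cldn6 (0.998), Stard10 (0.998) and the splicing regulator gene Esrp2 (0.998). Cldn6, also among the 10 epithelial markers above, had 1077, 619 and 1177 CPM in epithelium and 1.25, 2.00 and 4.78 CPM in muscle. As in Krt8 and Krt7, replicate 2 was the lowest epithelial library and replicate 3 the highest muscle library. The ranking over these same 6 libraries favours such a shared order, which is therefore no separate likeness.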

How the data were processed

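RNA was sequenced from sorted epithelium and muscle of mouse trachea, 3 libraries each, made with SMART-Seq v4 and Nextera XT per the labels' protocols. The deposited values are raw counts of reads per gene. The submitters' processing notes name Trim Galore, Bowtie2, Cufflinks, DESeq and mm10, without their roles; the counting step and its use of strand are not given in the sources used here. CPM are counts per 1000000, with libraries scaled by edgeR's TMM factors. Epithelium and muscle were compared with edgeR 4.0.16 (R 4.3.3, filterByExpr, robust quasi-likelihood test, Benjamini-Hochberg adjustment over 19375 genes, threshold 0.05). The fit was checked on simulated counts with the same dispersion for all genes and no added background. That check does not cover background counts or genes such as Krt5, with most counts in 1 library. The SE is the log2 fold change divided by the square root of F. Alternatives were other scalings, no filter, a replicate block, the identifier number in the table's header as a term, omitted libraries, limma-voom (limma 3.58.1) and DESeq2 1.42.0. Shares and ratios were compared by exact permutation tests over libraries (scipy 1.17.1). The keratins and gene lists were chosen with earlier results of these data known. The text names all 10 keratins, from each other list up to 4 called genes per direction by fold (average log2 CPM of at least 2, no overlap), and the 4 genes most like Krt8 and Krt7. The uncalled basal cell genes are named outside this rule. Transcript windows of 50 bases were searched in GENCODE M21.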

Additional observations from a re-analysis of the deposited data

How the results depend on the processing

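Of the 10 keratins, 6 were called higher in epithelium, 6 or 7 without any 1 library, 7 in the 3 libraries with few background counts and with DESeq2, and 4 with limma-voom. The log2 fold change of Krt5 ranged from -0.063 (without epithelium replicate 1) to 4.61 without any 1 library, and in the 3 libraries with few background counts it was 5.59. That fit has epithelium replicate 1 alone in its arm, the library with nearly all Krt5 counts, so its p is not read. Other type II keratins called in epithelium rose from 0 to 1 in the 4 libraries with the identifier number 9-16 and to 2 in the 3 libraries with few background counts, and were 0 to 1 without any 1 library. Other intermediate filament genes called in muscle were 3, 5 with DESeq2 and 3 to 5 without any 1 library. Non-keratin basal genes called in muscle were 1, 2 with the identifier number as a term, in its 4 libraries and with DESeq2, and 1 to 2 without any 1 library. Over all genes, calls in muscle were 1274 of 19375 in the main fit and 2054 of 19375 with the identifier number as a term. They were 1776 of 16634 in its 4 libraries, 1593 of 19375 with limma-voom and 1956 of 14380 with DESeq2. Calls in epithelium were 797, 1124, 1152, 895 and 1593 in the same order. The cause of the changes in the lists was not tested.

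With a replicate block, 6 keratins were called, other intermediate filament genes called in epithelium fell from 1 to 0 (Lmnb1, adjusted p = 0.051), and calls over all genes went from 2071 to 2418. Deviations of same-numbered libraries correlated at 0.54, 0.63 and -0.34 over 19375 genes, so the numbers were not taken as pairs.

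Scaled by library total, the summed keratin level in epithelium was 1934 CPM, and the median log2 fold change of all genes moved from 0.10 to 0.33. Per transcript length, added after the data were seen, the ratio of type I to type II was 1.03 in epithelium and 2.88 in muscle. On that scale Krt7 took 11.2% in epithelium and 4.90% in muscle, and Krt18 27.0% and 48.2%. The share of Krt5 in muscle was 2.11% per coding length and 1.65% less background counts. The 294 to 811 keratin counts in muscle limit the precision of its shares.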

Other observations

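Krtap17-1, a gene of keratin-associated proteins, which cross-link keratins in hair, was named after its values were seen. It had 17.9, 92.2 and 54.4 CPM in epithelium, from 964, 1379 and 1449 counts, and 0.152, 0 and 0 CPM in muscle, from 4, 0 and 0 counts. Every epithelial library was far above muscle. The log2 fold change was 10.05 ± 1.03 (edgeR, adjusted p = 0.00069). Its size rests on the prior count, muscle being at or near 0, and was 13.71 without muscle replicate 1 and 8.22 in the 3 libraries with few background counts. The call was lost with limma-voom (adjusted p = 0.16).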
